A study of Mus musculus with 15 samples.

Results

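The enzymes of glycolysis and of the pentose phosphate pathway, with the glucose carriers that feed them, were followed as a set of 36 genes across 15 arrays of mouse mammary tumours. The genes were taken by name, and probes were assigned to them through the transcript identifiers of the array. All 36 were measured, by 52 probes, among 28025 genes or unnamed transcripts tested in all. The set holds 27 genes of glucose uptake and glycolysis, 8 of the pentose phosphate pathway and Tigar, a regulator that lies between them. Of the 36, 35 were well above background on all 15 arrays, and Slc2a3 was on 13.

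Tumours came from female mice and were dissected, and the labels name no separation of cell types before RNA extraction. There were 4 groups. T0 tumours (n = 4) were collected before treatment began; tumours of 3 arms, vehicle (n = 3), B20 (n = 4) and nintedanib (n = 4), were collected at its end. B20 (B20-4.1.1), an antibody that binds VEGF, was injected into the peritoneum at 5 mg/kg, 2 times per week. Nintedanib, an inhibitor of the VEGF, FGF and PDGF receptor kinases, was given by oral gavage at 85 mg/kg per day. Drugs were started at 7 weeks of age, and the sources used here do not give the length of treatment. The labels name the MMTV-PyMT model for the vehicle, B20 and nintedanib tumours, in which a mammary-active viral promoter drives a polyomavirus oncogene, so the carcinomas stand for 1 oncogene in 1 tissue. The T0 labels give tissue and sex without the model, and T0 replicate 4 is labelled both as vehicle and as before any treatment and was kept in T0 by its title. The labels do not say that the samples of a group were separate animals, so a p-value here speaks only of sample-to-sample spread, some of which can be technical.

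The median raw signal of the arrays was 55 to 102 over a local background of 19 to 26. Between 53.5% and 68.1% of probes were well above background on 14 arrays, against 84.1% on T0 replicate 3. The vehicle, B20 and nintedanib arrays shared slides, while the T0 arrays lay on slides of their own, were scanned separately and were read with another version of the extraction protocol. In every comparison with T0, these technical differences and the group cannot be told apart. Marker genes of mammary epithelium had a summed level between 9.0 and 9.51 on every array, with all 10 well above background on all 15. In each arm 8 of these 10 were lower than at T0 (median differences -0.27, -0.24 and -0.29 with vehicle, B20 and nintedanib), and 1, 1 and 2 were called lower. Throughout, a level is a log2 spot signal relative to the 75th percentile of its array, and a difference is a log2 difference with the standard error of the fit. That standard error pools the spread of all 4 groups. Levels of different probes cannot be set against each other.

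Glycolysis splits glucose into pyruvate in the cytosol, and tumours often run it fast and reduce the pyruvate to lactate even where oxygen is present. Most of its steps are served by several genes, some expressed in nearly all cells and others mainly in muscle, fat, brain or blood cells. The pentose phosphate pathway branches off after hexokinase; its oxidative arm makes NADPH, and its non-oxidative arm exchanges sugar phosphates with glycolysis and supplies ribose for nucleotides.

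The main difference lay between tumours at T0 and at the end of treatment, in whichever arm. Slc2a4, the insulin-responsive glucose carrier of fat and muscle, fell 9.22-fold with vehicle and 6.47-fold with nintedanib. Pfkfb1, an isoform of the kinase that makes the activator of phosphofructokinase, fell in all comparisons with T0, 3.46-fold with vehicle, 2.6-fold with B20 and 2.83-fold with nintedanib. Pfkfb3, another isoform of that kinase, fell 2.85-fold with nintedanib. Eno2, the enolase typical of neurons, rose 2.09-fold with B20 and 2.14-fold with nintedanib. Of the pentose phosphate enzymes, G6pdx and H6pd fell 1.67-fold and 2.63-fold with B20, and Pgd and Tkt fell 1.47-fold and 1.85-fold with nintedanib. No gene of the set passed the test between any pair of the vehicle, B20 and nintedanib groups. With slide as a random block (estimated correlation 0.13), 9 of these 12 calls against T0 were lost (limma adjusted p 0.0516 to 0.0734), among them all 4 with B20, both of Slc2a4 and those of Pfkfb3, Pgd and Tkt. The calls kept were Pfkfb1 with vehicle and nintedanib (0.0449 in each) and Eno2 with nintedanib (0.0452). With arrays scaled by their median instead, both Slc2a4 calls were kept and the other 10 were lost. With only the 2 groups compared in the fit, none of the 12 calls was kept.

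**Figure D1:**
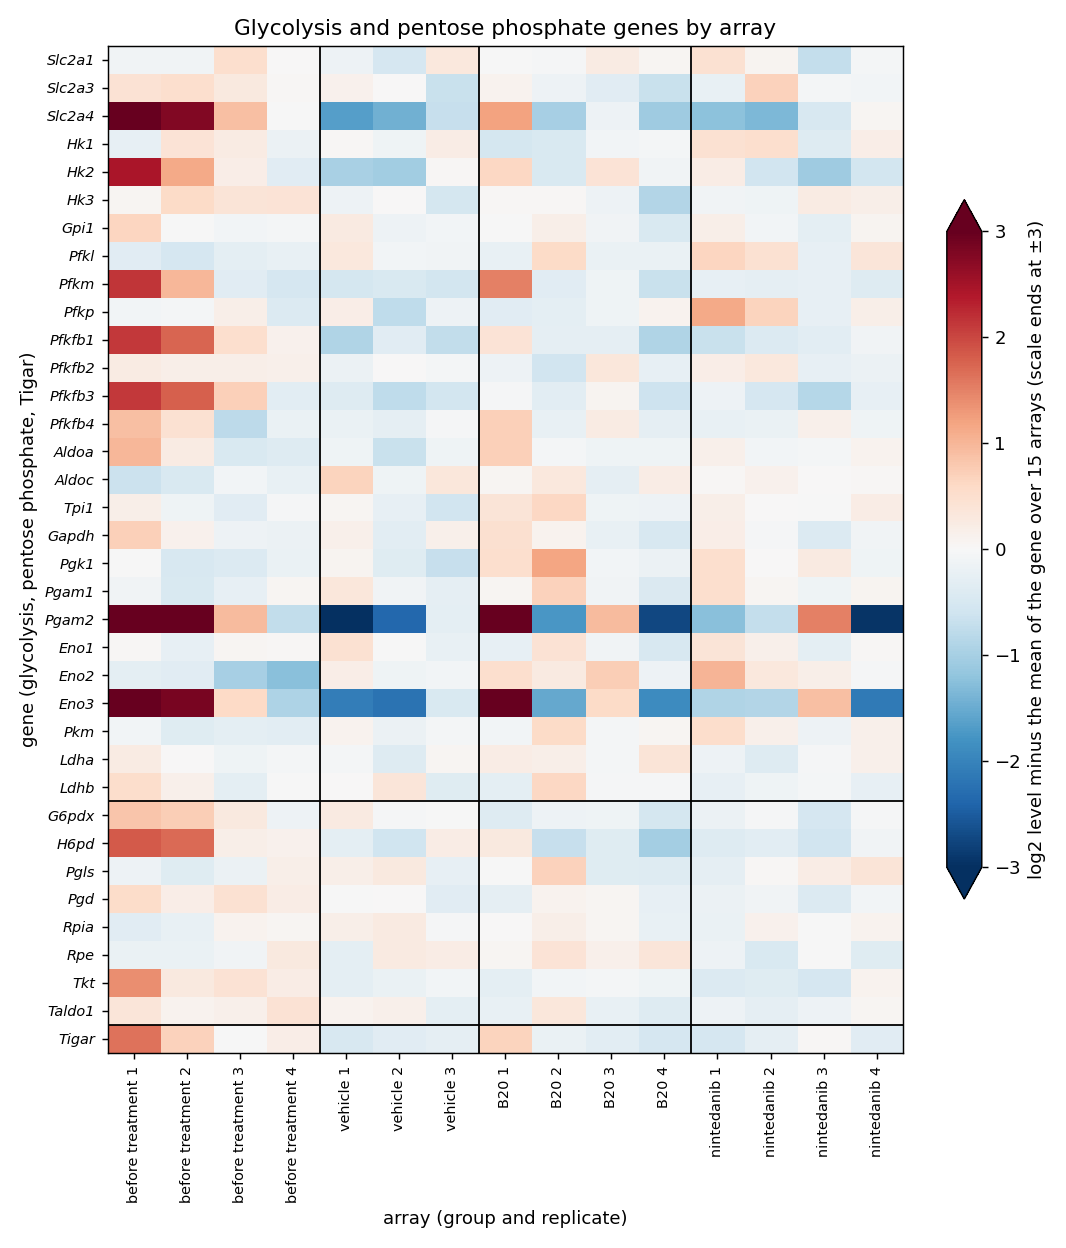
Level of each of the 36 genes (rows) on each of the 15 arrays (columns), as the log2 difference from the mean of that gene over the arrays; red is higher, blue is lower, and the colour scale ends at ±3. The deepest red lies in T0 replicates 1 and 2 and B20 replicate 1, in Pgam2 and Eno3 above all.

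By count, 2 genes of the set fell and 0 rose with vehicle against T0, where 5.11% of all genes tested passed (2.97% higher, 2.13% lower). With B20, 3 fell and 1 rose, against 9.53% of all genes (5.84% higher, 3.69% lower). With nintedanib, 5 fell and 1 rose, against 11.4% of all genes (6.82% higher, 4.55% lower). As shares of the 36 these were 5.56%, 11.1% and 16.7%, so those with vehicle and B20 were near the shares of all genes. These 12 calls fell on 8 genes, and Pfkfb1 was called in each of the 3 comparisons. The comparisons share their T0 arrays. The counts moved with single arrays. Without T0 replicate 4, whose label is double, 4, 6 and 9 genes passed with vehicle, B20 and nintedanib. Without T0 replicate 3, which stands apart in its share of probes above background, 3, 2 and 7 passed. With vehicle, 0 passed without T0 replicate 1 or 2 or any 1 of the 3 vehicle arrays, and 1 passed without B20 replicate 3 or nintedanib replicate 1, 2 or 3. With B20, 0 passed without B20 replicate 2 or 3. In that comparison 1 passed without B20 replicate 4, nintedanib replicate 1, 2 or 4, T0 replicate 1 or 2 or vehicle replicate 1 or 2, and 2 without B20 replicate 1, nintedanib replicate 3 or vehicle replicate 3. With nintedanib, 0 passed without nintedanib replicate 1, 1 without replicate 2, 2 without nintedanib replicate 3 or T0 replicate 1 and 3 without T0 replicate 2. At an unadjusted p under 0.05, 13, 14 and 13 of the 36 stood, against 21.3%, 26.2% and 28.3% of all genes tested. Groups did not overlap for 10, 6 and 7 of the 36 genes with vehicle, B20 and nintedanib, against 16.9%, 15.5% and 17.1% of all genes. The median difference of the set was -0.22, -0.19 and -0.19, beside medians of 0.05, 0.08 and 0.02 over all genes tested. Against T0, 21 of the 36 were lower in all 3 arms, 7 were higher in all 3, and 8 were of mixed sign; most of these differences did not pass the test.

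**Figure D2:**
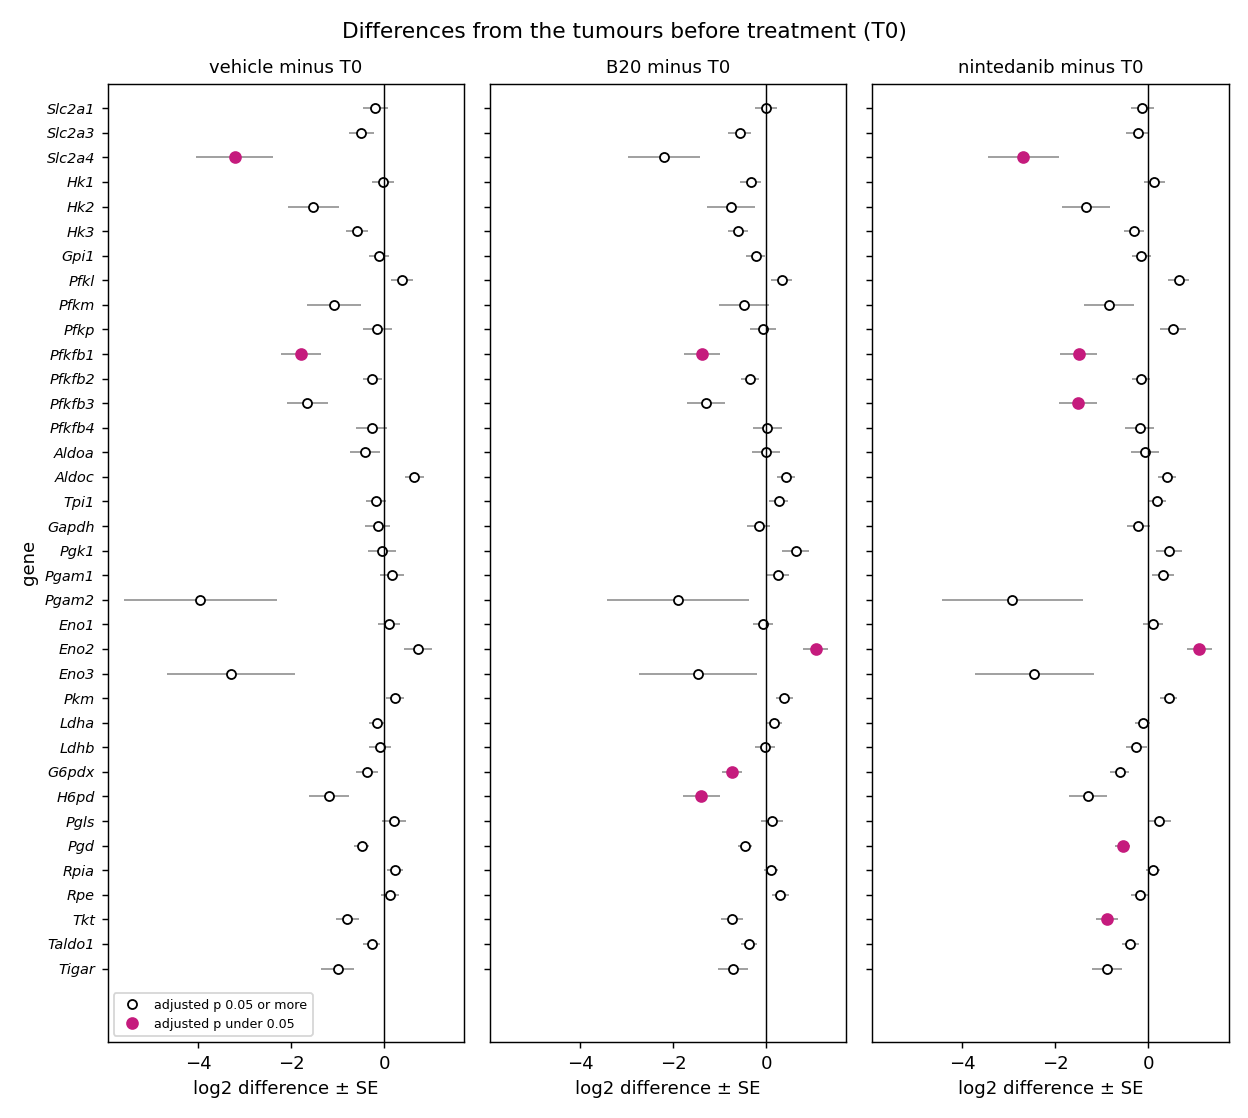
Log2 difference from T0 (horizontal axis, ± SE of the fit) for each of the 36 genes (rows), in vehicle, B20 and nintedanib tumours; filled points have an adjusted p under 0.05 and open points do not. Filled points number 2, 4 and 6 from left to right, and the widest errors belong to Pgam2 and Eno3.

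Glucose enters cells through the Slc2a carriers. Slc2a4 read 5.45, 4.13, 2.25 and 1.35 at T0, -0.3, -0.1 and 0.67 with vehicle, 2.55, 0.36, 1.19 and 0.29 with B20 and 0.11, 0.01, 0.87 and 1.41 with nintedanib. T0 replicates 1 and 2 were the highest, every vehicle array lay below every T0 array, and the B20 and nintedanib arrays overlapped T0. The differences from T0 were -3.21 ± 0.83 with vehicle, -2.2 ± 0.77 with B20 and -2.69 ± 0.77 with nintedanib (limma, Benjamini-Hochberg adjusted p = 0.0423, 0.0872 and 0.0382). The call with vehicle was kept when any 1 of B20 replicates 1, 2 and 4, nintedanib replicate 4 and T0 replicates 3 and 4 was left out. It was lost without any 1 of the other 9 arrays (adjusted p 0.0541 to 0.122). The call with nintedanib was lost without any 1 of 7 arrays, namely B20 replicate 3, nintedanib replicates 1, 2 and 3, T0 replicates 1 and 2 and vehicle replicate 2 (0.0509 to 0.0982).

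Slc2a3, the high-affinity carrier of neurons and blood cells, read -3.48, -3.41, -3.62 and -3.88 at T0, -3.79, -3.9 and -4.57 with vehicle, -3.81, -4.05, -4.25 and -4.57 with B20 and -4.13, -3.21, -3.97 and -3.98 with nintedanib. Its groups overlapped, and its differences from T0 were -0.49 ± 0.26 with vehicle, -0.57 ± 0.24 with B20 and -0.23 ± 0.24 with nintedanib (adjusted p = 0.311, 0.154 and 0.579). Slc2a1, the carrier found in most dividing cells, lay between 2.94 and 4.16 on the 15 arrays. It differed from T0 by -0.19 ± 0.26 with vehicle, -0.01 ± 0.24 with B20 and -0.14 ± 0.24 with nintedanib, none of which passed.

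Hexokinases trap glucose in the cell as its phosphate. Hk2, the isoform of muscle, fat and many tumours, read 2.77, 1.45, 0.52 and -0.02 at T0, -0.65, -0.72 and 0.36 with vehicle, 0.93, -0.15, 0.72 and 0.22 with B20 and 0.55, -0.25, -0.75 and -0.23 with nintedanib. T0 replicates 1 and 2 were the highest, yet T0 replicate 4 lay within the range of the other groups. Hk2 differed from T0 by -1.52 ± 0.56 with vehicle, -0.75 ± 0.51 with B20 and -1.35 ± 0.51 with nintedanib (adjusted p = 0.131, 0.384 and 0.104), and no difference passed. Hk3, found mainly in myeloid cells, read -2.6, -2.08, -2.28 and -2.24 at T0, -2.82, -2.65 and -3.18 with vehicle, -2.63, -2.63, -2.81 and -3.54 with B20 and -2.77, -2.79, -2.41 and -2.47 with nintedanib. All vehicle and B20 arrays lay below all T0 arrays, while nintedanib overlapped them. The differences were -0.58 ± 0.23 with vehicle, -0.6 ± 0.22 with B20 and -0.31 ± 0.22 with nintedanib, and none passed. Hk1, the isoform of most tissues, read 4.48, 5.15, 4.98 and 4.56 at T0, 4.76, 4.6 and 4.95 with vehicle, 4.19, 4.28, 4.66 and 4.68 with B20 and 5.18, 5.23, 4.34 and 4.92 with nintedanib. Its groups overlapped in every comparison. Gpi1, the isomerase of the next step, lay between 6.07 and 7.17 and differed from T0 by at most -0.23 ± 0.2, with B20.

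Phosphofructokinase commits sugar to glycolysis. Pfkl, its liver-type subunit, read 2.81, 2.65, 2.87 and 2.92 at T0, 3.48, 3.08 and 3.05 with vehicle, 2.94, 3.73, 2.96 and 2.96 with B20 and 3.8, 3.62, 2.91 and 3.53 with nintedanib. Vehicle and B20 arrays all lay above T0, and nintedanib replicate 3 fell within it. Pfkl differed from T0 by 0.39 ± 0.24 with vehicle, 0.33 ± 0.22 with B20 and 0.65 ± 0.22 with nintedanib, with no difference passing (adjusted p = 0.388, 0.371 and 0.0744). Pfkp, the platelet-type subunit, read 0.98, 1.01, 1.23 and 0.65 at T0, 1.27, 0.3 and 0.92 with vehicle, 0.73, 0.77, 0.92 and 1.16 with B20 and 2.2, 1.73, 0.81 and 1.25 with nintedanib. Its T0, vehicle and B20 arrays overlapped, and nintedanib replicates 1 and 2 were the highest of the 15. Pfkm, the muscle-type subunit, read 4.82, 3.67, 2.34 and 2.17 at T0, 2.16, 2.21 and 2.13 with vehicle, 4.2, 2.35, 2.56 and 2.01 with B20 and 2.43, 2.42, 2.43 and 2.29 with nintedanib. Only T0 replicates 1 and 2 and B20 replicate 1 stood above 3, and the other 12 arrays lay between 2.01 and 2.56.

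The Pfkfb enzymes make and break the activator of phosphofructokinase. Pfkfb1 read 1.89, 1.5, 0.27 and -0.11 at T0, -1.15, -0.58 and -0.98 with vehicle, 0.17, -0.51, -0.5 and -1.13 with B20 and -0.91, -0.65, -0.55 and -0.34 with nintedanib. Every vehicle and nintedanib array lay below every T0 array, and only B20 replicate 1 reached into the T0 range. It differed from T0 by -1.79 ± 0.43 with vehicle, -1.38 ± 0.4 with B20 and -1.5 ± 0.4 with nintedanib (adjusted p = 0.0319, 0.0449 and 0.0293). The call with vehicle was lost without any 1 of T0 replicates 1 and 2 and the 3 vehicle arrays (adjusted p 0.0653 to 0.102). With nintedanib it was lost without any 1 of T0 replicates 1 and 2 and nintedanib replicates 1, 2 and 3 (0.0562 to 0.0817). With B20 it was kept only without B20 replicate 1, T0 replicate 3 or T0 replicate 4, and lost without any 1 of the other 12 arrays (0.054 to 0.13).

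Pfkfb3, the isoform with the highest kinase activity relative to its phosphatase activity, read 3.75, 3.4, 2.33 and 1.3 at T0, 1.23, 0.87 and 1.07 with vehicle, 1.59, 1.31, 1.71 and 1.01 with B20 and 1.48, 1.12, 0.77 and 1.36 with nintedanib. Vehicle lay wholly below T0, and B20 and nintedanib overlapped it through T0 replicate 4. The differences were -1.65 ± 0.45 with vehicle, -1.29 ± 0.41 with B20 and -1.51 ± 0.41 with nintedanib (adjusted p = 0.0514, 0.0664 and 0.0337), so only the fall with nintedanib passed. That call was lost without any 1 of the 4 nintedanib arrays or T0 replicates 1 and 2 (0.0574 to 0.0923). A second, dimmer probe of Pfkfb3 was also lower than T0 in each arm, by -0.95, -0.77 and -0.80. Pfkfb2, the heart-type isoform, lay between -1.47 and -0.55 and Pfkfb4, the testis-type isoform, between -1.22 and 0.46, and neither passed in any comparison. Tigar, whose product lowers the same activator, read 1.25, 0.3, -0.39 and -0.19 at T0, -0.86, -0.73 and -0.67 with vehicle, 0.27, -0.58, -0.7 and -0.9 with B20 and -0.88, -0.66, -0.36 and -0.72 with nintedanib. Vehicle lay wholly below T0, B20 replicate 1 and nintedanib replicate 3 overlapped it, and the differences (-0.99 ± 0.35 with vehicle, -0.72 ± 0.33 with B20 and -0.9 ± 0.33 with nintedanib) did not pass.

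Aldolase and triose phosphate isomerase follow. Aldoa, the muscle and general isoform, read 9.57, 8.82, 8.1 and 8.19 at T0, 8.42, 7.89 and 8.45 with vehicle, 9.29, 8.51, 8.44 and 8.42 with B20 and 8.71, 8.48, 8.49 and 8.66 with nintedanib. T0 replicate 1 and B20 replicate 1 were the highest. Aldoc, the brain-type isoform, read 6.44, 6.64, 7.01 and 6.87 at T0, 7.77, 6.97 and 7.43 with vehicle, 7.14, 7.42, 6.82 and 7.32 with B20 and 7.14, 7.22, 7.1 and 7.13 with nintedanib. Every nintedanib array lay above every T0 array, while vehicle and B20 overlapped T0. Aldoc differed from T0 by 0.65 ± 0.21 with vehicle, 0.43 ± 0.19 with B20 and 0.41 ± 0.19 with nintedanib (adjusted p = 0.088, 0.175 and 0.186). Tpi1, the isomerase, read 6.04, 5.74, 5.54 and 5.83 at T0, 5.92, 5.62 and 5.31 with vehicle, 6.26, 6.49, 5.75 and 5.71 with B20 and 6.05, 5.89, 5.87 and 6.09 with nintedanib. Its groups overlapped in each comparison, and it differed from T0 by no more than 0.27 ± 0.2, with B20.

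The later steps of glycolysis yield ATP. Pgk1, phosphoglycerate kinase, read 5.7, 5.24, 5.29 and 5.52 at T0, 5.8, 5.35 and 5.03 with vehicle, 6.21, 6.91, 5.62 and 5.53 with B20 and 6.21, 5.72, 5.97 and 5.59 with nintedanib. B20 replicate 2 was the highest, and all groups overlapped. Pgk1 differed from T0 by -0.04 ± 0.31 with vehicle, 0.63 ± 0.28 with B20 and 0.44 ± 0.28 with nintedanib (adjusted p = 0.959, 0.176 and 0.334). Pkm, pyruvate kinase, read 5.69, 5.42, 5.49 and 5.46 at T0, 5.88, 5.61 and 5.72 with vehicle, 5.7, 6.35, 5.72 and 5.83 with B20 and 6.3, 5.94, 5.63 and 5.93 with nintedanib. Every B20 array lay above every T0 array, by a narrow margin, and Pkm differed from T0 by 0.23 ± 0.19 with vehicle, 0.39 ± 0.18 with B20 and 0.44 ± 0.18 with nintedanib, with no difference passing. Gapdh, Pgam1 and Eno1, the general forms of their steps, lay at 7.52 to 8.72, 4.81 to 5.97 and 6.29 to 7.21. None of the 3 passed. Gapdh, Pgk1, Aldoa, Tpi1, Pgam1, Eno1, Pkm and Ldha belong to mouse families with processed pseudogenes, so their values are uncertain where a probe reads more than 1 locus. The 7 probes of Gapdh differed in sign in each comparison.

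Eno2 read -2.19, -2.24, -2.88 and -3.14 at T0, -1.68, -2.01 and -1.97 with vehicle, -1.39, -1.62, -1.16 and -2.03 with B20 and -0.87, -1.57, -1.7 and -1.92 with nintedanib. The 4 T0 arrays were the lowest of the 15, with no overlap in any of the 3 comparisons. Eno2 differed from T0 by 0.72 ± 0.3 with vehicle, 1.06 ± 0.28 with B20 and 1.09 ± 0.28 with nintedanib (adjusted p = 0.18, 0.0314 and 0.0239), so the rises with B20 and nintedanib passed and that with vehicle did not. The call with nintedanib was lost only without nintedanib replicate 1 (0.0705). With B20 it was lost without any 1 of B20 replicates 1, 2 and 3 and T0 replicates 3 and 4 (0.0553 to 0.0782). Neuron and glia markers, of which all 6 were measured, had summed levels of 4.22 to 5.02 at T0, 4.54 to 5.36 with vehicle, 4.78 to 5.61 with B20 and 4.54 to 5.72 with nintedanib. Of the 6, 4 were lower than T0 in each arm and none passed. Their part in the Eno2 result was not tested.

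Lactate dehydrogenase turns pyruvate into lactate. Ldha, its main tumour form, read 8.68, 8.44, 8.31 and 8.38 at T0, 8.39, 8.04 and 8.49 with vehicle, 8.67, 8.62, 8.38 and 8.82 with B20 and 8.29, 8.05, 8.39 and 8.58 with nintedanib. The T0 range, 8.31 to 8.68, held most of the other arrays. Ldha differed from T0 by -0.15 ± 0.18 with vehicle, 0.17 ± 0.16 with B20 and -0.13 ± 0.16 with nintedanib (adjusted p = 0.694, 0.554 and 0.653), and both of its dimmer probes gave a difference of the other sign with nintedanib (0.45 and 0.57). The same probes, in that order, gave -0.07 and 0.44 with vehicle and 0.41 and 0.77 with B20. Ldhb, the heart form, lay between 4.61 and 5.59 and did not pass.

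The oxidative arm of the pentose phosphate pathway starts with G6pdx in the cytosol and H6pd in the endoplasmic reticulum. G6pdx, the rate-limiting dehydrogenase, read 4.11, 4.01, 3.57 and 3.12 at T0, 3.53, 3.23 and 3.26 with vehicle, 2.89, 3.11, 3.14 and 2.73 with B20 and 3.09, 3.24, 2.77 and 3.23 with nintedanib. T0 replicates 1, 2 and 3 were the highest of all arrays, and T0 replicate 4 lay below every vehicle array and within the ranges of B20 and nintedanib. G6pdx differed from T0 by -0.36 ± 0.23 with vehicle, -0.74 ± 0.21 with B20 and -0.62 ± 0.21 with nintedanib (adjusted p = 0.397, 0.0458 and 0.0733). The call with B20 was kept only without nintedanib replicate 3 or T0 replicate 4. It was lost without any 1 of the other 13 arrays (0.0509 to 0.127). H6pd read 2.95, 2.81, 1.28 and 1.25 at T0, 0.82, 0.53 and 1.33 with vehicle, 1.42, 0.43, 0.76 and 0.1 with B20 and 0.73, 0.8, 0.55 and 1.0 with nintedanib. All nintedanib arrays lay below T0, and vehicle replicate 3 and B20 replicate 1 overlapped it. H6pd differed from T0 by -1.18 ± 0.43 with vehicle, -1.4 ± 0.4 with B20 and -1.3 ± 0.4 with nintedanib (adjusted p = 0.133, 0.0444 and 0.0517). The call with B20 was kept only without B20 replicate 1, T0 replicate 3, T0 replicate 4 or vehicle replicate 3, and was lost without any 1 of the other 11 (0.0541 to 0.128).

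Pgd, the next dehydrogenase of the oxidative arm, read 4.58, 4.23, 4.49 and 4.26 at T0, 4.02, 4.03 and 3.69 with vehicle, 3.75, 4.13, 4.08 and 3.78 with B20 and 3.85, 3.93, 3.61 and 3.94 with nintedanib. Every T0 array lay above all 11 others. Pgd differed from T0 by -0.48 ± 0.17 with vehicle, -0.45 ± 0.15 with B20 and -0.56 ± 0.15 with nintedanib (adjusted p = 0.111, 0.0784 and 0.0338), and only the fall with nintedanib passed. That call was lost without any 1 of the 4 nintedanib arrays or T0 replicates 1 and 3 (0.0524 to 0.0926). Tkt, the transketolase of the non-oxidative arm, read 7.83, 6.71, 6.86 and 6.64 at T0, 6.13, 6.21 and 6.33 with vehicle, 6.12, 6.35, 6.36 and 6.29 with B20 and 6.01, 6.05, 5.92 and 6.52 with nintedanib. Again every T0 array lay above all 11 others, T0 replicate 1 furthest. The differences were -0.79 ± 0.25 with vehicle, -0.73 ± 0.23 with B20 and -0.88 ± 0.23 with nintedanib (adjusted p = 0.0875, 0.0654 and 0.0292), and the fall with nintedanib passed; it was lost without any 1 of nintedanib replicates 1, 2 and 3 (0.0649 to 0.0759).

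Of the other pentose phosphate genes, Taldo1, transaldolase, lay between 6.62 and 7.44, with all nintedanib arrays below all T0 arrays (-0.39 ± 0.18, adjusted p = 0.169). Pgls, the lactonase, lay between 1.65 and 2.75, and Rpia, the ribose phosphate isomerase, between 0.15 and 0.77. Rpe, the epimerase, read 1.69, 1.7, 1.79 and 2.19 at T0, 1.61, 2.17 and 2.12 with vehicle, 1.96, 2.31, 2.04 and 2.27 with B20 and 1.74, 1.45, 1.89 and 1.53 with nintedanib. None of these 4 passed in any comparison. Of the 8 pentose phosphate genes as a group, 0 were called with vehicle, 2 fell with B20 and 2 fell with nintedanib, beside 5.11%, 9.53% and 11.4% of all genes tested. Their median differences were -0.32, -0.415 and -0.47, beside 0.05, 0.08 and 0.02 over all genes. With 8 genes, counts of 0 to 2 say little about the group.

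Pgam2 and Eno3 are the muscle forms of phosphoglycerate mutase and enolase. Pgam2 read 5.76, 4.22, 1.9 and 0.2 at T0, -2.04, -1.4 and 0.66 with vehicle, 5.21, -0.79, 1.89 and -1.79 with B20 and -0.3, 0.24, 2.45 and -2.0 with nintedanib. Eno3 read 7.24, 5.8, 3.54 and 2.03 at T0, 0.88, 0.72 and 2.49 with vehicle, 6.75, 1.4, 3.52 and 1.06 with B20 and 2.05, 2.07, 3.85 and 0.82 with nintedanib. For both, T0 replicates 1 and 2 and B20 replicate 1 were the highest, and arrays of 1 group differed by several log2 units. Pgam2 differed from T0 by -3.95 ± 1.64 with vehicle, -1.89 ± 1.52 with B20 and -2.92 ± 1.52 with nintedanib and Eno3 by -3.29 ± 1.38 with vehicle, -1.47 ± 1.27 with B20 and -2.46 ± 1.27 with nintedanib. None of these passed (adjusted p = 0.183, 0.464 and 0.227 for Pgam2). The median SD within groups was 0.34 over the 36 genes and 0.39 over all genes tested; it was 2.37 for Pgam2, 1.98 for Eno3 and 1.18 for Slc2a4.

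Markers of skeletal muscle and of fat also varied across these arrays, in part separately. The summed level of 14 muscle markers read 11.3, 9.85, 7.73 and 6.01 at T0, 3.72, 4.07 and 6.75 with vehicle, 10.72, 5.14, 7.56 and 4.33 with B20 and 5.56, 6.07, 7.94 and 4.03 with nintedanib. The summed level of 11 adipocyte markers read 10.43, 10.05, 8.6 and 8.66 at T0, 3.29, 4.59 and 5.8 with vehicle, 7.49, 6.67, 7.11 and 5.25 with B20 and 5.15, 5.53, 7.0 and 7.98 with nintedanib. Both sums were highest at T0 replicate 1, and the muscle sum was next highest in B20 replicate 1. Nintedanib replicate 4 had the highest adipocyte sum of its group (7.98) and the lowest muscle sum (4.03). All 14 muscle markers were lower than T0 in each arm, with 0 called. All 11 adipocyte markers were lower than T0 in each arm, and 11, 10 and 10 were called with vehicle, B20 and nintedanib. Of 8 endothelial markers, 8, 7 and 8 were lower with vehicle, B20 and nintedanib, with 3, 7 and 3 called. Of 7 fibroblast markers, 6, 7 and 7 were lower with vehicle, B20 and nintedanib, with 0, 0 and 1 called. Of 5 erythroid markers measured, 0, 2 and 2 were called higher. Of 9 macrophage markers measured, 6, 7 and 7 were higher with vehicle, B20 and nintedanib, with none called. Of 8 neutrophil markers measured, 5, 6 and 7 were higher, with 0, 1 and 0 called. None of the muscle or adipocyte markers was below background throughout; 11 of 14 and 10 of 11 were well above it on all 15 arrays.

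T0 replicates 1 and 2 and B20 replicate 1 had the 3 highest muscle sums, and the same 3 arrays were the highest for 9 of the 36 genes. They were Slc2a4, Hk2, Pfkm, Pfkfb4, Aldoa, Pgam2, Eno3, H6pd and Tigar. Over all genes with a value on every array, 1.42% had these 3 arrays as their highest; this look at the arrays was chosen after the values were seen. In whole tumours, fewer cells of a type and less RNA per cell cannot be told apart. The part of muscle, fat, vessel, myeloid and erythroid RNA in the differences from T0 was not tested.

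**Figure D3:**
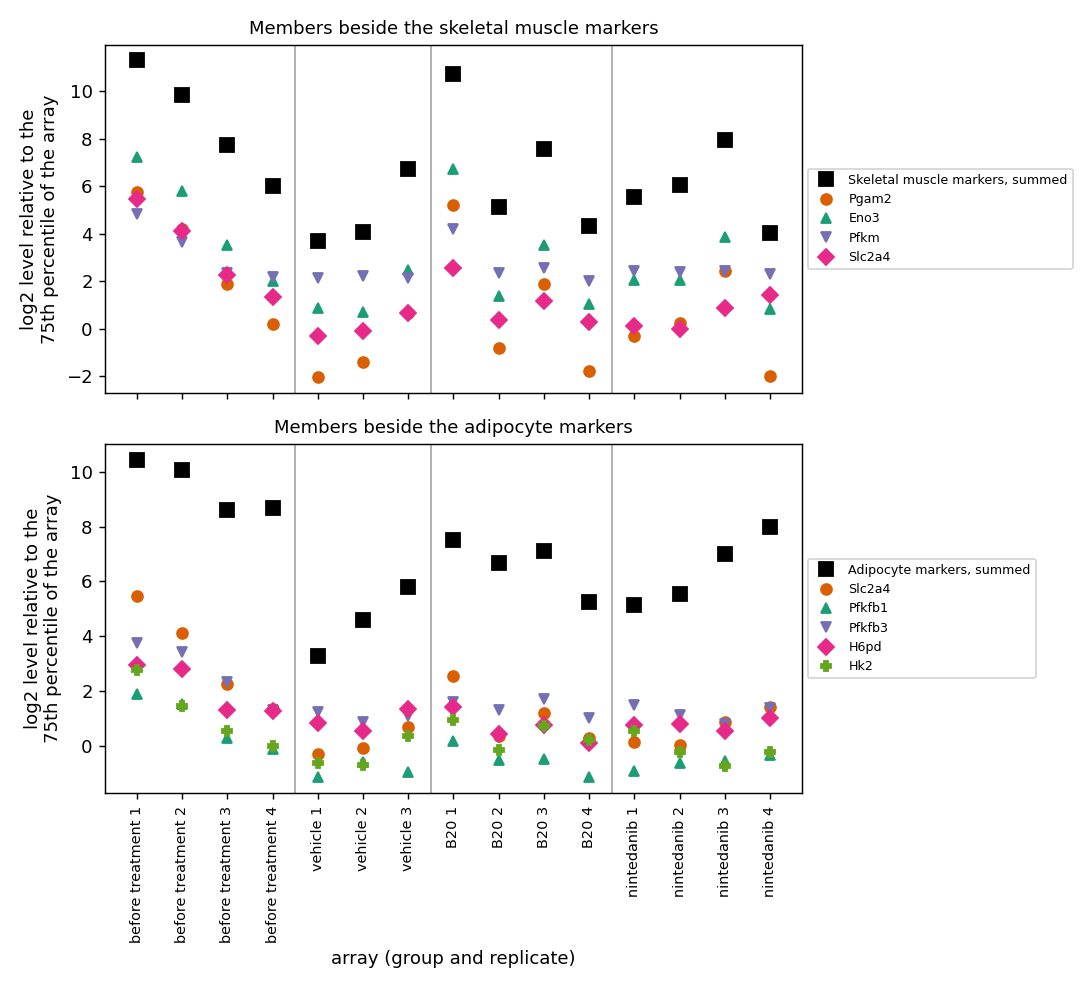
Level (vertical axis, log2 relative to the 75th percentile of the array) on each of the 15 arrays of Pgam2, Eno3, Pfkm and Slc2a4 beside the summed skeletal muscle markers (top), and of Slc2a4, Pfkfb1, Pfkfb3, H6pd and Hk2 beside the summed adipocyte markers (bottom). T0 replicates 1 and 2 are high in both panels, and B20 replicate 1 stands out in the top one.

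The next question was whether either drug changed the enzymes relative to vehicle, or the drugs differed from each other. In each of the 3 comparisons 0 of the 36 genes passed, and 0.0% of all genes tested did by limma. At an unadjusted p under 0.05, 1 gene of the set stood in each comparison, against 4.91% of all genes for nintedanib and vehicle, 3.34% for B20 and vehicle and 9.58% for the drugs. Groups did not overlap for 2, 1 and 1 genes, against 7.38%, 5.4% and 5.73% of all genes. The median SE of a difference over all genes was 0.29 for 4 arrays against 3 and 0.268 for 4 against 4, so small differences were not detectable with this number of arrays.

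With nintedanib, Pfkp had the lowest p, at 0.67 ± 0.31 against vehicle (unadjusted p = 0.0464, adjusted p = 0.999 in limma). The difference was 0.8 within the first slide, 0.33 within the second and 0.67 with slide as a block. A second, dimmer Pfkp probe gave -0.24. Aldoa (0.33 ± 0.33) and Pfkm (0.23 ± 0.58) were the genes whose nintedanib and vehicle arrays did not overlap. Both were higher with nintedanib. The standard error of Pfkm includes the spread of the other groups. Its SD was 0.07 with nintedanib and 0.04 with vehicle, against 1.24 at T0 and 0.97 with B20.

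With B20, Pgk1 had the lowest p, at 0.67 ± 0.31 against vehicle (unadjusted p = 0.0456, adjusted p = 0.998 in limma). It was 0.67 within the first slide, 0.5 within the second and 0.63 with slide as a block. Tpi1 (0.44 ± 0.22) and Ldha (0.31 ± 0.18) came next. G6pdx was the gene whose B20 and vehicle arrays did not overlap, lower with B20 by -0.37 ± 0.23.

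Between the drugs, Rpe was lower with nintedanib than with B20 by -0.49 ± 0.18 (unadjusted p = 0.0153, adjusted p = 0.509 in limma), and its arrays did not overlap. The difference was -0.41 within the first slide and -0.74 within the second. Pfkp (0.6 ± 0.28) and Hk1 (0.46 ± 0.22) were higher with nintedanib; the second Pfkp probe gave -0.26 and the second Hk1 probe 1.15.

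**Figure D4:**
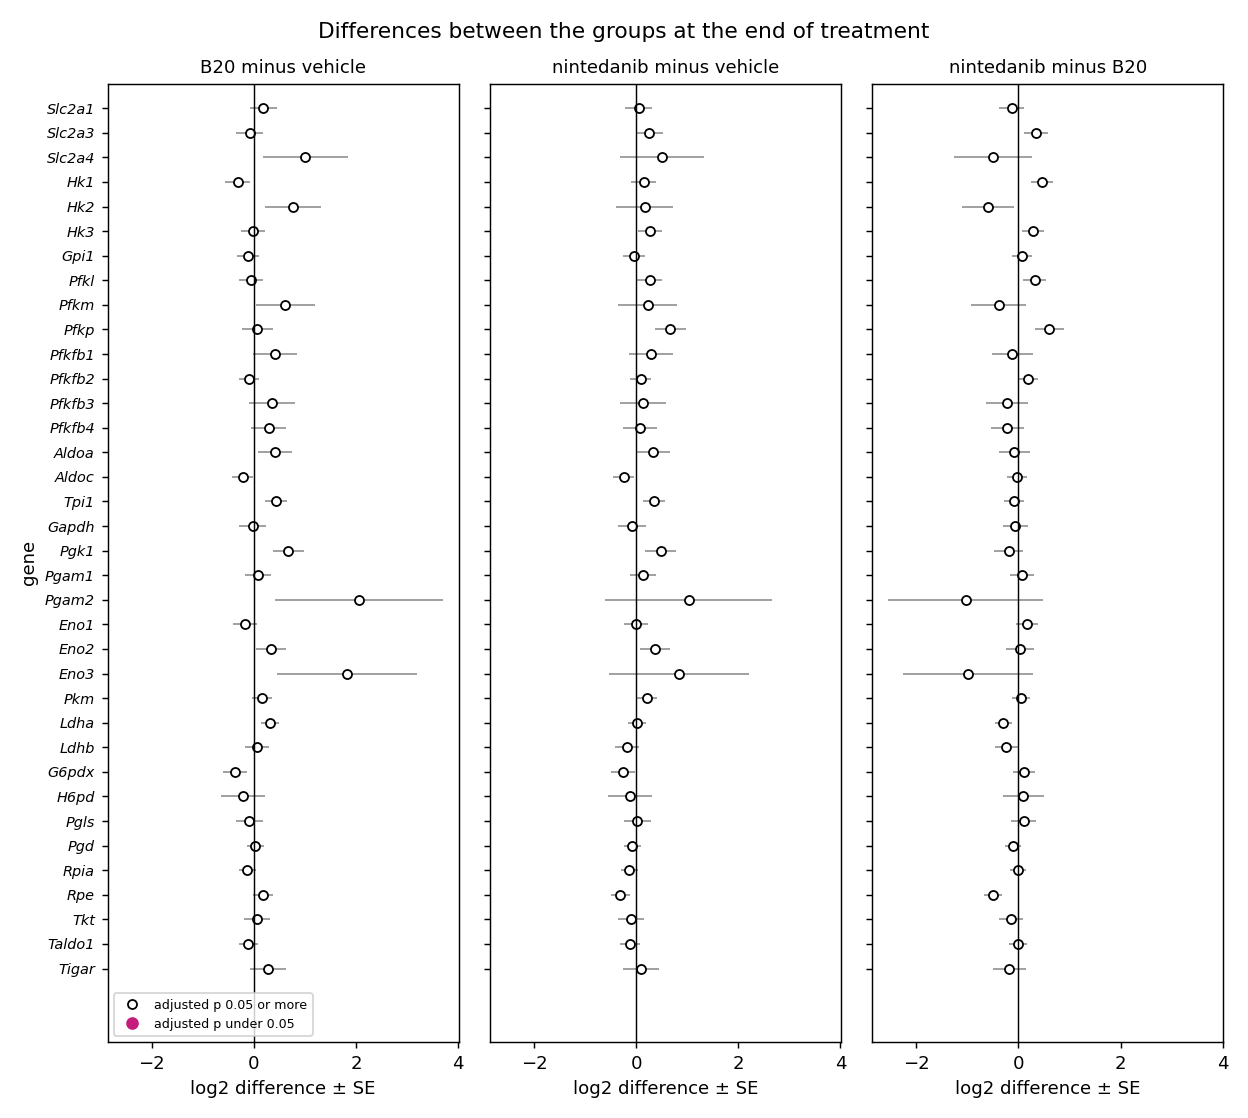
Log2 difference (horizontal axis, ± SE of the fit) for each of the 36 genes (rows) between B20 and vehicle, nintedanib and vehicle, and nintedanib and B20. All points are open, since no adjusted p was under 0.05, and the widest errors are those of Pgam2 and Eno3.

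Isoforms of a step were compared through the log2 ratio of their probes within an array, which shows only whether they changed unequally. Across the 4 groups, 0 of 15 pairs passed an exact permutation test over all 15765750 assignments (Benjamini-Hochberg over the pairs), and 5 had an unadjusted p under 0.05. The lowest values were those of Eno2 over Eno1 (p = 0.01086) and Pfkfb4 over Pfkfb3 (p = 0.01333), each with an adjusted p of 0.09995 by exact permutation. Eno2 over Eno1 read -8.98, -8.74, -9.7 and -9.94 at T0, -8.9, -8.76 and -8.5 with vehicle, -7.9, -8.8, -7.81 and -8.32 with B20 and -8.01, -8.47, -8.17 and -8.71 with nintedanib. T0 replicates 3 and 4 were the lowest, and T0 overlapped vehicle and B20 but, by a narrow margin, not nintedanib.

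Pfkfb4 over Pfkfb3 read -3.28, -3.39, -3.55 and -1.94 at T0, -1.88, -1.58 and -1.53 with vehicle, -1.31, -1.97, -1.9 and -1.72 with B20 and -2.15, -1.75, -1.05 and -1.93 with nintedanib. T0 replicates 1, 2 and 3 lay below all other arrays, and T0 replicate 4 lay among them. Pfkfb2 over Pfkfb3 followed the same arrays, at -4.38, -4.12, -3.05 and -2.03 at T0, -2.27, -1.73 and -2.0 with vehicle, -2.63, -2.78, -2.26 and -2.13 with B20 and -2.15, -1.69, -1.89 and -2.43 with nintedanib (exact permutation p = 0.03086, adjusted p = 0.127). Without T0 replicate 4, both Pfkfb pairs passed (exact permutation, adjusted p = 0.04 and 0.0121). Slc2a4 over Slc2a1 read 1.91, 0.59, -1.9 and -2.31 at T0, -3.81, -3.25 and -3.29 with vehicle, -1.09, -3.26, -2.71 and -3.42 with B20 and -3.98, -3.71, -2.07 and -2.18 with nintedanib (exact permutation p = 0.03376, adjusted p = 0.127). T0 replicates 1 and 2 were the highest, and vehicle lay wholly below T0.

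Of the other 11 pairs, Hk2 over Hk1 had an exact permutation p of 0.04323, and the remaining 10 had 0.1153 to 0.9333. In single comparisons, 90 exact tests gave no adjusted p below 0.402. The smallest raw p that 4 against 4 or 4 against 3 arrays allow is 0.0286. A test at that floor could pass after adjustment only if most of the 90 stood there too. These tests could thus not decide on single pairs. At the floor, without overlap, was Hk2 over Hk1 for B20 minus vehicle (1.08), nintedanib minus B20 (-1.06) and nintedanib minus T0 (-1.48). So were Aldoc over Aldoa for nintedanib minus vehicle (-0.58) and Eno2 over Eno1 for nintedanib minus T0 (0.999).

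**Figure D5:**
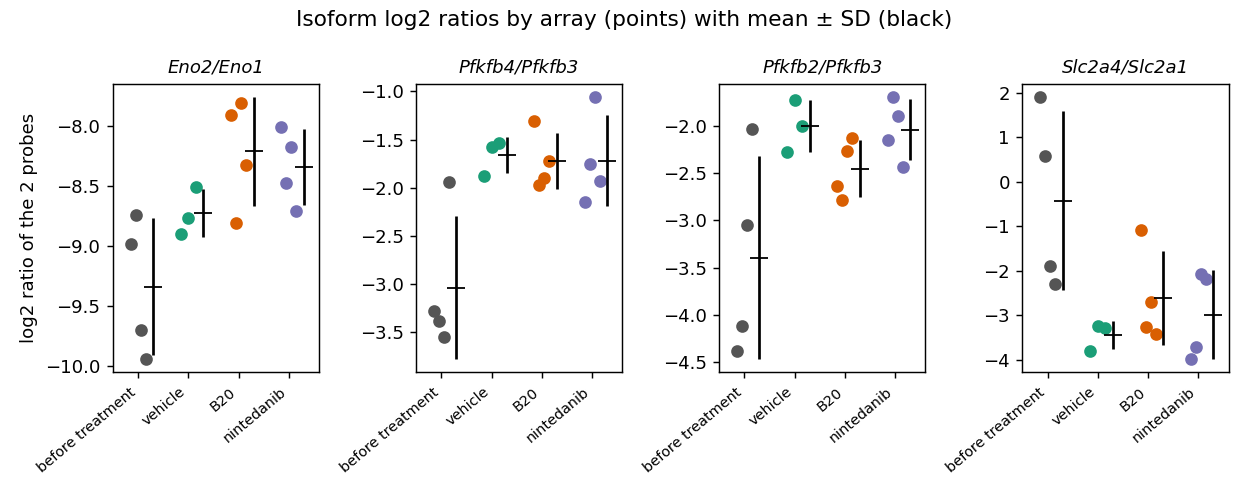
Log2 ratio of 2 isoform probes within each array (points) for Eno2 over Eno1, Pfkfb4 over Pfkfb3, Pfkfb2 over Pfkfb3 and Slc2a4 over Slc2a1, by group, with the mean and SD in black. T0 replicates 3 and 4 stand lowest in the Eno2 panel, and T0 replicate 4 stands away from the other T0 points in the Pfkfb4 panel.

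The letters ACGTG, at the core of the element that the hypoxia-inducible factors bind, were searched on both strands in the 250 bases before each transcript start in the RefSeq promoter table (GRCm38.p6). The table held 34 of the 36 genes, without Slc2a3 and Slc2a4. Of their 52 starts, 15 (28.8%) held a match, against 16.6% of all 32851 promoters in the table. By gene, 11 of 34 (32.4%) held at least 1, against 18.5% of all genes. The palindrome CACGTG counts once on each strand, so 1 palindrome gives 2 matches. No other sequence was searched, so 0 matches speaks only of these letters. The promoters of Ldha (chr7:46845554-46845803, plus strand, 5 matches), Pgk1 (chrX:106186850-106187099, plus strand, 2), Pfkfb3 (chr2:11502091-11502340, minus strand, 2) and Eno2 (chr6:124769674-124769923, minus strand, 0) are shown because they are named above and run from the most matches to none. Matches are in capitals, and for Ldha and Pfkfb3 the start with the most matches is given.
Ldha: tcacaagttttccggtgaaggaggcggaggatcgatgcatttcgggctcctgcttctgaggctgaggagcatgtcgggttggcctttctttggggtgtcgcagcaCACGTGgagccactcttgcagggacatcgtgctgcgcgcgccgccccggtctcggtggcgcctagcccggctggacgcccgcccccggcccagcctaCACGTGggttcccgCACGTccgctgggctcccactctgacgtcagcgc
Pgk1: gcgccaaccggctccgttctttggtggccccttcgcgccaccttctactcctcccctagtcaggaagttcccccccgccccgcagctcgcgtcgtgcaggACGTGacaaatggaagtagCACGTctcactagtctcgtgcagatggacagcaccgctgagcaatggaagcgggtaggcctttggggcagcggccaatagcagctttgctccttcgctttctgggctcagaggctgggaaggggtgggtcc
Pfkfb3: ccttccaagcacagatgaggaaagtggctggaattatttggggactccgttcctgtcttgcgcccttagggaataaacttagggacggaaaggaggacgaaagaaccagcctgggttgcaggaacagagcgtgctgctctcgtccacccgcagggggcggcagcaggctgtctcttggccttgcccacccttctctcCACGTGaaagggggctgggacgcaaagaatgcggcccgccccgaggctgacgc
Eno2: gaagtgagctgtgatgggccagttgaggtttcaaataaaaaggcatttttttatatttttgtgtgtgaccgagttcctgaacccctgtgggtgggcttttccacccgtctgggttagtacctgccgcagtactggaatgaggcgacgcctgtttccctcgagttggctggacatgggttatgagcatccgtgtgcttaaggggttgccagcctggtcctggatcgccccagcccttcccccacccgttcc

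A match is a description of the letters and not a measured binding site.

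Around these enzymes, 87 neighbouring genes of glucose metabolism were listed and 80 were measured. In the 3 comparisons among vehicle, B20 and nintedanib, 0 passed. Against T0, 2 rose and 8 fell with vehicle, 4 rose and 8 fell with B20, and 4 rose and 7 fell with nintedanib. These calls were 12.5%, 15% and 13.8% of the 80, beside 5.11%, 9.53% and 11.4% of all genes tested, so the nintedanib share was near that of all genes. The list was chosen with earlier results of these data known, and it holds Pck1, also an adipocyte marker. These shares are therefore a description only.

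Of 8 hypoxia-induced genes in this list, 1 rose with vehicle, 4 rose with B20, and 2 rose and 1 fell with nintedanib. These calls were 12.5%, 50% and 37.5% of the 8, beside 5.11%, 9.53% and 11.4% of all genes tested. By sign alone, 4, 6 and 5 of the 8 were higher than T0 and 4, 2 and 3 were lower. Their median differences were 0.14, 0.82 and 0.6, beside 0.05, 0.08 and 0.02 over all genes. With 8 genes, such counts say little about the group. Car9, a carbonic anhydrase induced by hypoxia, read -1.06, -0.89, -0.76 and 0.16 at T0, 2.18, 1.35 and 1.72 with vehicle, 2.0, 2.3, 0.98 and 1.14 with B20 and 3.0, 1.88, 1.67 and 1.62 with nintedanib. Every array of the 3 arms lay above every T0 array, and the differences were 2.39 ± 0.42 with vehicle, 2.24 ± 0.39 with B20 and 2.68 ± 0.39 with nintedanib (limma adjusted p = 0.00955, 0.0078 and 0.00314). These calls were kept without any 1 of the 15 arrays. The other hypoxia-induced genes called, named after their values were seen, moved with single arrays. Adm, the vasodilator adrenomedullin, rose by 1.55 ± 0.45 with B20 and 1.62 ± 0.45 with nintedanib. The first call was kept only without B20 replicate 4, nintedanib replicate 1 or 3 or vehicle replicate 2 (otherwise 0.0511 to 0.117), and the second was lost without nintedanib replicate 1, 2 or 4 or any 1 T0 array (0.0549 to 0.0981). Ankrd37 rose by 1.11 ± 0.31 with B20, a call lost without B20 replicate 1, 2 or 3, nintedanib replicate 4, T0 replicate 1, 2 or 4 or vehicle replicate 1 (0.0522 to 0.105). Ddit4, an inhibitor of mTORC1 signalling, rose by 1.42 ± 0.41 with B20, a call kept only without T0 replicate 3 or 4 (otherwise 0.0517 to 0.123). Ndrg1 went the other way, at -0.81 ± 0.23 with nintedanib, a call lost without nintedanib replicate 2, 3 or 4 or T0 replicate 1, 2 or 3 (0.0538 to 0.0902).

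Txnip, an inhibitor of glucose uptake, read 4.88, 4.44, 4.58 and 4.58 at T0, 3.17, 3.86 and 3.09 with vehicle, 3.65, 3.72, 3.96 and 3.76 with B20 and 3.84, 3.94, 3.88 and 3.99 with nintedanib. All T0 arrays lay above the rest, and Txnip differed by -1.25 ± 0.19 with vehicle, -0.85 ± 0.17 with B20 and -0.71 ± 0.17 with nintedanib and was called in each. Its call with nintedanib was lost without nintedanib replicate 1 or T0 replicate 1 (adjusted p 0.0576 and 0.0624).

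Gys2, the glycogen synthase of liver and fat, read 2.99, 1.66, -0.06 and -0.02 at T0, -7.64, -6.67 and -4.2 with vehicle, -1.47, -2.58, -1.81 and -3.3 with B20 and -3.55, -3.15, -1.15 and -1.01 with nintedanib. It was highest at T0 and lowest with vehicle, where it was well above background on 1 of 3 arrays. It fell in all arms, at -7.31 ± 0.94 with vehicle, -3.43 ± 0.87 with B20 and -3.36 ± 0.87 with nintedanib. Since 2 of the 3 vehicle arrays were not well above background, the size of the vehicle difference is uncertain; with normexp background correction it was -3.91. The call with vehicle was kept without any 1 of the 15 arrays. That with B20 was lost without T0 replicate 1 or 2 or B20 replicate 2 or 4 (0.0704 to 0.0876), and that with nintedanib without T0 replicate 1 or 2 or nintedanib replicate 1 or 2 (0.067 to 0.0812). Pck1, which makes phosphoenolpyruvate and is also 1 of the 11 adipocyte markers, read 5.73, 5.46, 4.02 and 2.78 at T0, -4.75, -1.57 and -1.16 with vehicle, 1.15, -0.15, 1.56 and -2.18 with B20 and -0.77, 0.06, 1.21 and 1.76 with nintedanib. Its T0 arrays lay above all others, and it differed by -6.99 ± 1.06 with vehicle, -4.4 ± 0.99 with B20 and -3.93 ± 0.99 with nintedanib. Its call with vehicle was likewise kept. That with B20 was lost without T0 replicate 1 or 2 or B20 replicate 4 (0.0501 to 0.0564), and that with nintedanib without T0 replicate 1 or 2 or nintedanib replicate 1 or 2 (0.0555 to 0.0713).

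Gpd1, a glycerol phosphate dehydrogenase, fell in each arm, at -2.3 ± 0.51 with vehicle, -2.07 ± 0.47 with B20 and -2.22 ± 0.47 with nintedanib. Its call with vehicle was lost without T0 replicate 2 or any 1 of the 3 vehicle arrays (0.0585 to 0.0776), and that with B20 without B20 replicate 2 or 4 (0.0516 and 0.0618). Pcx, pyruvate carboxylase, fell in each arm too, at -1.79 ± 0.45 with vehicle, -1.65 ± 0.41 with B20 and -1.59 ± 0.41 with nintedanib. Its calls were each lost without T0 replicate 1 or 2, and without any 1 of the 3 vehicle arrays, of the 4 B20 arrays or of nintedanib replicates 1, 2 and 3 in their own comparisons (0.0528 to 0.122). The vehicle call was also lost without B20 replicate 3 or nintedanib replicate 2 or 3 (0.0509 to 0.0524). Fbp1, a gluconeogenic phosphatase, rose with vehicle (2.31 ± 0.55), a call lost without T0 replicate 1 or 2 or vehicle replicate 1 or 2 (0.0753 to 0.121). Mlxip, a glucose-sensing transcription factor, fell with B20 (-1.28 ± 0.24, kept without any 1 array) and with vehicle (-1.06 ± 0.26, lost without T0 replicate 1 or 2 or any 1 vehicle array, 0.0523 to 0.116). Gpd2, the mitochondrial partner of Gpd1, fell with B20 (-1.49 ± 0.36), a call lost without B20 replicate 2 or 4 (0.0568 and 0.068). It also fell with nintedanib (-1.22 ± 0.36), a call kept only without T0 replicate 1, 3 or 4 or vehicle replicate 1 (otherwise 0.0508 to 0.0974). With nintedanib, Pck2, the mitochondrial counterpart of Pck1, rose (0.69 ± 0.17, lost without nintedanib replicate 1 or T0 replicate 1 or 2, 0.052 to 0.0598). Slc2a6, a further glucose carrier, also rose (0.77 ± 0.21, lost without nintedanib replicate 1, 2 or 4 or T0 replicate 1 or 3, 0.0566 to 0.0957). Also called, beyond the naming rule, were falls of Pdk4 (-4.55 ± 1.18) and Pygl (-2.75 ± 0.7) with vehicle. Each was lost without any 1 of 11 arrays (limma adjusted p 0.0505 to 0.121 and 0.0504 to 0.118). Slc2a5 fell with B20 (-3.9 ± 1.12), where it was well above background on 2 of 4 arrays. That call was lost without any 1 of 9 arrays (0.0526 to 0.102). Adipocyte markers were lower on the same arrays, as given above, and their part in these results was not tested.

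The neighbouring counts, too, moved with single arrays. They were lowest, at 4 with vehicle, without T0 replicate 2 or vehicle replicate 1 or 2, at 4 with B20 without B20 replicate 2, and at 3 with nintedanib without T0 replicate 1 or nintedanib replicate 1. Without T0 replicate 4 they were 14, 14 and 18. Among the drug comparisons, Gys2 had the lowest p against vehicle, at 3.95 ± 0.94 with nintedanib and 3.88 ± 0.94 with B20 (limma adjusted p = 0.473 and 0.998). With its level not well above background on 2 of 3 vehicle arrays, these sizes are uncertain, and with normexp they were 1.27 and 1.13. Between the drugs it was Pgm2l1, a sugar phosphate mutase, at -0.46 ± 0.15 (limma adjusted p = 0.509).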

How the data were processed

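The members and the lists of neighbouring and marker genes were chosen with earlier results of these data known. Total RNA of 15 mammary tumours was hybridised to Agilent 1-colour arrays (Cy3), 1 array a sample, with 62976 spots. Per the file headers, Feature Extraction 10.7.3.1 made the processed spot intensity that the authors deposited, which is background-subtracted and not normalised between arrays. Flags for spots well above background and for outliers are other values of 0 or 1, per the file headers. The authors' deposited table of log2 values was used as an alternative: the sources used here do not say how it was made, but it came close to normexp with quantile normalisation (median r of 0.999989 across arrays), no gene was centred, a higher value was a brighter spot, and its column medians were 6.616 to 6.627.

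Control and outlier spots were left out, spots of 1 probe averaged, and log2 intensity was scaled by subtracting each array's 75th percentile, with no constant added. Transcript identifiers were matched to RefSeq (GRCm38.p6, names only), which named 26056 of 55681 probes. In 82 cases all spots of a probe were outliers on an array; none touched a value of the set. For each gene the brightest probe was used, and probes well above background on at least 3 arrays were kept. One limma model (R 4.3.3, limma 3.58.1) with 4 group means was fitted to 15 arrays. Tests were two-sided, with Benjamini-Hochberg adjustment over 28025 genes and a call at an adjusted p under 0.05. The fit and the isoform test were tested on simulated data. Isoform log ratios were tested by exact permutation (Python 3.11.15). Signal over background stands in for depth, and the number of arrays limits the precision.

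Genes were named with their values if called, if their unadjusted p was under 0.05 or if groups did not overlap, at most 12 a comparison by p, otherwise the 3 of lowest p; of neighbouring genes, those called (at most 8), otherwise the 3 of lowest p; of isoform pairs, the 4 of lowest p. Muscle-linked genes beyond this rule were described after their values were seen. Alternatives were other scalings and normalisations, background correction, filters, probe choice, array weights, slide and replicate blocks, fewer groups and leaving out each array. The normexp alternative used the median spot signal, chosen after seeing the files, which have no mean signal.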

Additional observations from a re-analysis of the deposited data

Results flagged for a closer look

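In 108 groups of 4 arrays (36 genes, 3 groups), 5 had a highest or lowest array far from the other 3, against 5.4 that chance alone gives at about 1 in 20. Gpi1 read 7.17 on T0 replicate 1, where the other 3 lay between 6.44 and 6.52. Eno1 read 6.5 on T0 replicate 2, below the others at 6.79 to 6.82. Pfkl read 3.73 on B20 replicate 2, above 2.94 to 2.96, and Aldoa read 9.29 on B20 replicate 1, above 8.42 to 8.51. Pfkm read 2.29 on nintedanib replicate 4, below 2.42 to 2.43. B20 replicate 1 was also the array with the highest muscle sum of its group (10.72), and the part of muscle RNA in the Aldoa value was not tested.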

How the results depend on the processing

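No fold change of a named gene changed sign under any alternative (0 of 2064 values), while 242 lost their call and 46 gained one, and no gene of the set, nor any neighbouring gene, was called among vehicle, B20 and nintedanib under any of them. Counts against T0 moved. With median scaling, 1, 0 and 1 genes of the set passed with vehicle, B20 and nintedanib, and 5, 7 and 5 neighbouring genes. With array weights the counts were 12, 9 and 16, and 25, 23 and 32. With only the 2 groups compared in the fit they were 0, 0 and 0, and 0, 5 and 4. That fit has fewer arrays to estimate the spread, and it takes the spread from those 2 groups alone. The SD of Slc2a4 was 1.85 at T0, beside 0.51 with vehicle, 1.05 with B20 and 0.66 with nintedanib. That of Pgd was 0.17 at T0, beside 0.19, 0.2 and 0.15. With slide as a random block the counts were 1, 0 and 2, and 6, 7 and 6. With no filter on dim probes, which tests more genes, 1 and 1 genes passed with vehicle and B20, and 6 and 7 neighbouring genes with vehicle and nintedanib. Quantile normalisation left 2 with B20. Normexp background correction gave 3, 4 and 9 genes of the set (vehicle, B20, nintedanib), and the deposited log2 table gave the same genes. Each added Pfkfb3 with vehicle, Tkt with B20, and Pfkl, Pkm and H6pd with nintedanib. Each also lost G6pdx with B20. Apart from leaving out arrays, that G6pdx call was kept in 2 of 11 alternatives. Without 1 array at a time, the set gave 0 to 4, 0 to 6 and 0 to 9, neighbouring genes 4 to 14, 4 to 14 and 3 to 18, and isoform pairs 0 to 2. Over all genes, calls with vehicle ran from 9 (only the 2 groups) to 5248 (array weights) against 1431, with B20 from 926 (without 1 array) to 6011 against 2671, and with nintedanib from 1464 to 7891 against 3184. Beyond the alternatives' own construction, the cause was not tested.

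Titles share replicate numbers. Of 21 same-numbered pairs 5 correlated above 0.1 (median 0.008, range -0.246 to 0.38), beside a median of -0.01 for differently numbered pairs. These correlations showed no pairing by number, and with so few arrays they cannot exclude one. With the replicate block, 1 gene of the set passed with B20 and 3 with nintedanib, and 6 neighbouring genes with B20. With 3 or 4 arrays a group, dim probes such as Slc2a3 (above background on 13 arrays) are the least certain.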
